A study of Rattus norvegicus with 12 samples.

Results

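Genes that move cargo between the membrane compartments of a cell were followed in the CA1 region of the rat hippocampus. Members were all probe sets whose platform annotation gives a single gene symbol that starts with Rab, Arf, Arl, Vps, Snx or Sec followed directly by a digit, or with Ap1, Ap2 or Ap3 followed by a letter and a digit. The rule reads gene names and no measured value. It took 188 of the 15923 probe sets on the array, for 151 of the 10411 genes named by a single symbol: 66 Rab, 9 Arf, 16 Arl, 7 Ap1, 5 Ap2, 8 Ap3, 31 Vps, 20 Snx and 26 Sec probe sets. Most members encode trafficking proteins, but a shared prefix does not ensure it: Vps72 is a subunit of chromatin remodelling complexes, and the Sec14-like proteins bind lipids.

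Membrane traffic runs on a division of labour. Rab and Arf proteins are small GTPases that mark a membrane when bound to GTP and recruit the coats, motors and tethers that make, carry and dock a vesicle. Adaptor complexes AP-1, AP-2 and AP-3 pick cargo into vesicles, Sec proteins bring new proteins into and out of the endoplasmic reticulum, and Vps proteins and sorting nexins sort cargo at endosomes. In hippocampal neurons these routes carry AMPA-type glutamate receptors to and from the synaptic membrane and recycle synaptic vesicles.

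The animals were 12 male Long-Evans rats, 3 to 4 months old, with 1 Affymetrix RAE230A array of CA1 RNA each. All 12 had standard spatial training in a water maze and, 2 to 3 weeks later, 1 session of 8 trials at 8-minute intervals in a new maze. In the spatial learning group (6 rats, titled Learning Activated) the visible platform stayed in place and orienting cues were present, whereas in the control task group (6 rats) the visible platform moved between trials and no informative cues were given. Every rat then swam a 90-second probe trial without the platform, 1 hour after its last trial, and CA1 was dissected straight afterwards. Control rats therefore also swam, saw a platform and carried the earlier training. Cues and platform movement differed between the groups along with any place learning, and their separate parts were not tested. Every difference is the spatial learning mean less the control mean of the deposited log2 values, and a difference of 0.2 is a 1.15-fold change.

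The tissue carried CA1 markers, and measures of RNA quality and of neighbouring tissue differed between arrays. Between any pair of arrays the correlation over probe sets was 0.996 to 0.998. All 5 CA1 pyramidal markers with a probe set (Wfs1, Fibcd1, Itpka, Pou3f1 and Mpped1) were above the level filter described below. Their mean per array ran from 10.65 to 11.00 in the control task group and from 10.75 to 11.12 in the spatial learning group, and all 5 had a positive difference (median 0.27), with 3 at an unadjusted limma p under 0.05 and 0 past the adjusted threshold. Markers of neighbouring fields also differed. Of the 2 tested CA3 markers, Bok stood at 0.37 (limma unadjusted p = 0.00020, adjusted p = 0.216) and Spock1 at -0.11, and the 2 tested dentate markers, Prox1 and Trpc6, stood at -0.23 and -0.19. The 4 tested microglial markers all had a negative difference (median -0.19), from -0.43 to -0.01, with 1 at an unadjusted limma p under 0.05. Astrocyte markers had 1 positive and 5 negative differences (median -0.02). Oligodendrocyte markers had 1 and 4 (median -0.03), and vessel markers had 2 and 1 (median 0.05). The 3 tested choroid plexus markers averaged 5.94 to 9.49 per control array and 5.70 to 6.05 per spatial learning array, with Folr1 and F5 below the filter. That mean was carried by Ttr, which reached 13.4 in a control rat and differed by -3.33, with a control SD of 3.27. Enpp2 stood at -0.41 and Kcne2 at 0.18. The 4 tested meningeal markers, 2 with a positive and 2 with a negative difference, averaged 6.99 to 8.67 per control array and 6.91 to 8.41 per spatial learning array. The 3' minus 5' signal of the hexokinase control transcript, which grows as RNA breaks down, averaged 1.48 ± 0.08 on control arrays and 1.65 ± 0.11 on spatial learning arrays (SD, n = 6 each, 2-sided exact permutation p = 0.00433). It ran from 1.35 to 1.55 on control arrays and from 1.55 to 1.82 on spatial learning arrays. A fit with this gap as a covariate can therefore hardly tell the gap from the group. The hexokinase gap thus moved with the groups, and the CA1, dentate and microglial markers each kept 1 sign. The CA3, choroid plexus, meningeal, astrocyte, oligodendrocyte and vessel markers went both ways. The part of all these measures in the differences below was not tested beyond the fits that are named there. In bulk tissue, fewer cells of a type and less RNA per cell cannot be told apart.

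No trafficking transcript passed the test, and most differences were small. Of the 188 member probe sets, 164 (135 genes) had a mean of at least 4 over all 12 arrays and were tested. The other 24 were dimmer and were left out. Of the 164, 0 had a limma adjusted p under 0.05, beside 0% of the 9610 probe sets tested in all, and 15 (9.15%, beside 10.9%) had an unadjusted limma p under 0.05. Higher after spatial learning were 10 of these 15 (6.10% of the members, where 6.36% of all tested probe sets were), and lower were 5 (3.05%, beside 4.55%). The exact rank-sum test gave 9 and 5 at an unadjusted p under 0.05, where 5.75% and 3.57% of all tested probe sets were. It passed 0 after adjustment, but could hardly have done otherwise. With 6 arrays per group its smallest p needs groups that do not overlap, which only 61 of the 9610 probe sets had. A positive difference was seen in 96 members (58.5%) and a negative one in 68, where 53.7% of all tested probe sets had a positive one. The median was 0.02, beside 0.01 over all tested probe sets. The members' share past the unadjusted threshold was thus not above the background in either direction.

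The data bound how far these transcripts could have differed. The median SE of a member's difference was 0.07, as it was over all tested probe sets. In size, 153 of 164 differences (93.3%) were smaller than 0.2, beside 92.2% of all tested probe sets. For 159 of the 164 (97.0%) the whole 95% confidence interval lay within 0.5 of 0, a 1.41-fold change, as did 94.2% of the intervals over all tested probe sets. The exceptions were Arl15, Vps13c, Vps37a and 2 of the 4 Rab14 probe sets. The spread between rats was wide in Vps13c, a lipid transfer protein, whose spatial learning values ran from 5.38 to 6.85 against 5.61 to 5.86 in the control task group, with a difference of 0.31 (95% interval -0.15 to 0.78). Vps37a, an ESCRT-I subunit that helps sort ubiquitinated cargo, had the largest negative difference, -0.34 (-0.76 to 0.07).

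**Figure D1:**
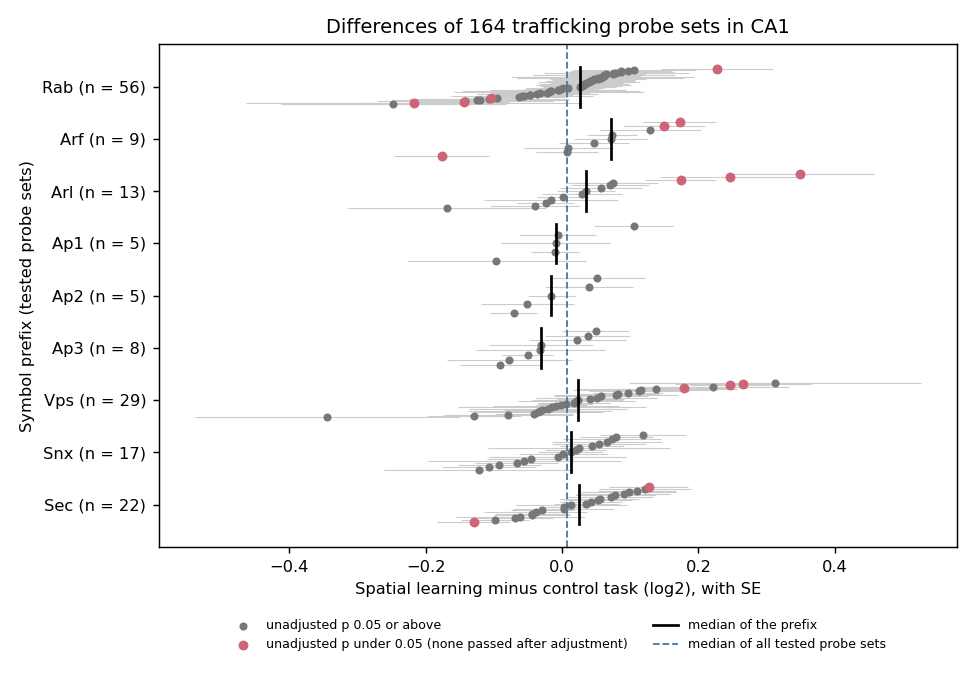
Each point is 1 tested probe set, placed by its difference between the groups (x axis, log2, bars show the SE) and its symbol prefix (y axis). Black bars are the prefix medians, from -0.03 for Ap3 to 0.07 for Arf, the dashed line is the median of all tested probe sets (0.01), and the 15 red points have an unadjusted p under 0.05.

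Rab GTPases, the largest family here, had 56 of 66 probe sets tested, with 31 positive and 25 negative differences and a median of 0.03. That median was -0.0018 with the hexokinase gap as a covariate and 0.0080 without the level filter, so it has no settled sign. On the early endosome, where endocytosed receptors arrive, Rab5a stood lower in the learning group on both of its probe sets. On the first, control values had a lowest, median and highest of 9.11, 9.22 and 9.41, and spatial learning values of 8.78, 9.12 and 9.16. The groups overlapped, with 3 of 6 spatial learning rats below every control and 5 of 6 controls above every spatial learning rat. The difference was -0.22 (SE 0.08, 95% interval -0.39 to -0.05, limma adjusted p = 0.425). The second Rab5a probe set gave 9.73, 10.03 and 10.09 against 9.66, 9.83 and 9.98, a difference of -0.14 (SE 0.07, limma adjusted p = 0.511). Both gave the same sign, and neither passed.

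The 2 paralogs of Rab5a on the array did not share a pattern. For Rab5b 1 probe set differed by -0.14 (limma adjusted p = 0.447) and the other by 0.05. Rab5c, the third form, differed by -0.04. Rab4a and Rab4b, which drive fast recycling from early endosomes, differed by 0.06 each. The 2 probe sets of Rab22a gave 0.06 and 0.09, and those of Rab31 gave 0.04 and -0.12. Early endosome Rabs as a group counted 6 positive and 5 negative differences in 11 tested probe sets.

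Rabs of the recycling endosome, the store from which receptors return to the surface, had 7 positive and 9 negative differences in 16 probe sets, with a median of -0.03. Rab11a, the marker GTPase of this compartment, differed by 0.03 on both probe sets, with a 95% interval of -0.12 to 0.18 on the first. Rab11b gave -0.02 and -0.05. The Rab11 effectors Rab11fip3, Rab11fip4 and Rab11fip5 gave 0.08, 0.05 and 0.03. Rab14, which acts between the Golgi and endosomes, was negative on all 4 of its probe sets, from -0.25 to -0.12, with SEs from 0.13 to 0.25. The first of these had a lowest, median and highest of 8.88, 9.14 and 9.65 in the control task group and of 8.55, 8.85 and 9.53 in the spatial learning group, so 3 spatial learning rats lay below every control while the others overlapped with them. Rab12, which directs receptors from recycling endosomes to degradation, differed by -0.09 on 1 probe set (limma adjusted p = 0.465) and by 0.01 on the other.

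Rab7a, the GTPase of late endosomes and lysosomes, turned on a single rat. Control values were 10.14 to 10.26, with a median of 10.21, and 5 of the 6 spatial learning values were above all of them, at 10.29 to 10.40. The remaining one, spatial learning replicate 5, lay below all controls at 9.98. The difference was 0.10 (limma adjusted p = 0.611), and without that array it was 0.16 (limma adjusted p = 0.321), so it did not pass either way. The second Rab7a probe set differed by -0.00. Rab9a, which serves the return route from late endosomes to the Golgi, gave -0.05, and Rab29 gave 0.11.

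Rabs of the endoplasmic reticulum and Golgi had 6 positive and 5 negative differences in 11 probe sets. Rab1a, needed for transport from the endoplasmic reticulum to the Golgi, had a lowest, median and highest of 11.27, 11.39 and 11.50 in the control task group and of 11.19, 11.29 and 11.36 after spatial learning. Here 4 controls lay above every spatial learning rat, and the difference was -0.10 (SE 0.04, limma adjusted p = 0.432). Its close relative Rab1b stood at 0.07, Rab2a at 0.03 and Rab6b, the form of Rab6 prominent in brain, at 0.06. Rab6a, which carries vesicles at the Golgi, gave 0.03 on both probe sets, with a 95% interval of -0.05 to 0.11 on the first. The remaining 6 Rab probe sets, of other roles grouped after values were seen, had differences from 0.0009 to 0.23. Among them Rab24, linked to autophagy, had the largest positive Rab difference, 0.23 (SE 0.08, limma adjusted p = 0.425). Its control values were 8.14, 8.33 and 8.63 (lowest, median and highest), its spatial learning values 8.38, 8.63 and 8.67, and 4 of 6 controls lay below all spatial learning rats. Without control replicates 3 and 6 and spatial learning replicate 6, the arrays with high choroid plexus or meningeal transcripts, the Rab24 difference was 0.15.

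Secretory Rabs gave 4 positive and 4 negative differences in 8 tested probe sets. Rab3b, a synaptic vesicle Rab, differed by 0.05, Rab8a, which delivers cargo to the plasma membrane and dendrites, by 0.05, Rab26 by 0.04 and Rab27b by -0.03. Rab27a, Rab3c, Rab3d and the Rab exchange proteins Rab3ip and Rab3il1 were below the filter, as were Rab20, Rab25, Rab38 and Rab39a.

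**Figure D2:**
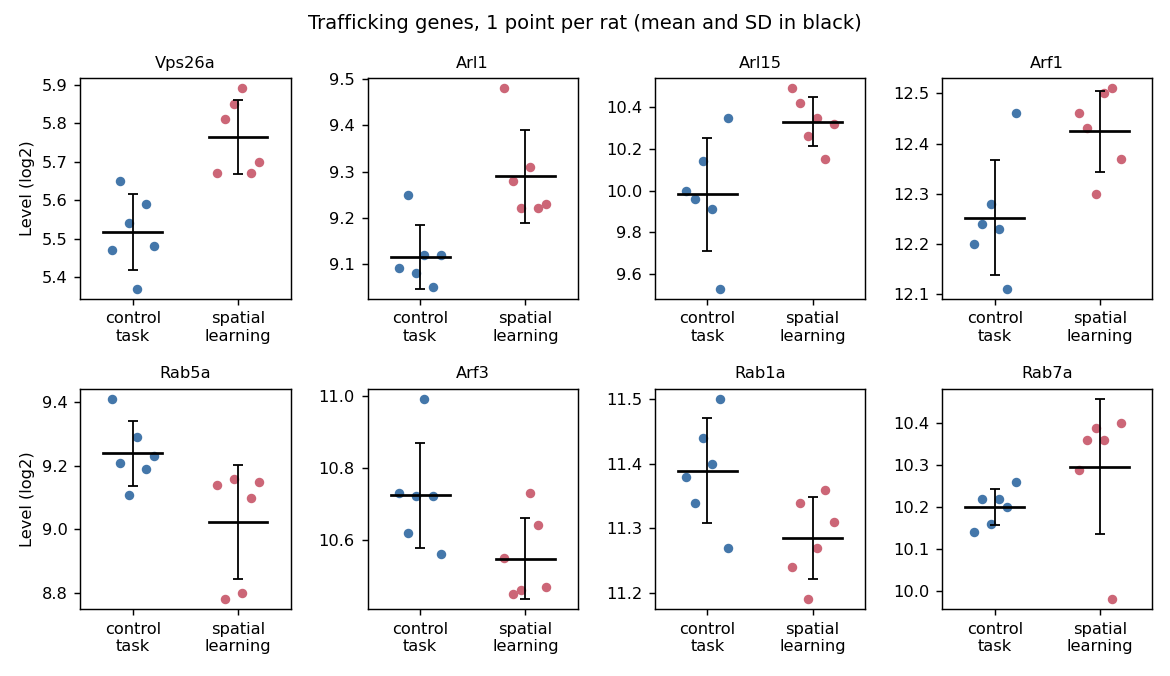
Each point is the level (y axis, log2) of 1 rat, with control task rats left and spatial learning rats right, and black bars show the mean and SD of 6. The scales differ between panels. Vps26a is the only panel in which the groups do not overlap, and in Rab7a 1 spatial learning rat lies at 9.98, below the 6 controls.

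Arf GTPases, which recruit coats to membranes, had the highest median of any prefix, 0.07 over 9 tested probe sets of 6 genes, with 8 positive and 1 negative. With the hexokinase gap as a covariate it was 0.04, below the Vps median of 0.05 in that fit. Averaged over the 9, 3 of the 6 spatial learning arrays lay above all controls. The same count was 3 for Vps, 4 for Ap1 and 4 for all members together. For Ap1, however, 2 spatial learning arrays lay below all controls, and its average differed by -0.0036. No such count over all tested probe sets is given here, and no test was run on these averages. Arf1, the Golgi form that recruits the COPI coat and AP-1, was the one member with an unadjusted p under 0.05 on more than 1 probe set. On the first its control values had a lowest, median and highest of 12.11, 12.23 and 12.46, and its spatial learning values of 12.30, 12.44 and 12.51. Control replicate 6 was the highest control, and the other 5 controls lay below all 6 spatial learning rats. The difference was 0.17, a 1.13-fold change (SE 0.05, 95% interval 0.06 to 0.29, limma adjusted p = 0.388). The second probe set ran from 10.45 to 10.78 in the controls and from 10.55 to 10.81 after spatial learning and gave 0.15 (SE 0.06, limma adjusted p = 0.429). Without control replicate 6 the first stood at 0.21 with a limma adjusted p of 0.0938, the smallest of any named member in any fit, and still did not pass.

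The other Arfs gave smaller values. Arf2 gave 0.07 and 0.05, Arf4 0.07 and Arf5 0.13, and none passed. Arf6, which acts at the plasma membrane and in endosome recycling, differed by 0.01 (95% interval -0.13 to 0.15). Arf3, nearly the same protein as Arf1, had 1 probe set at -0.18 (SE 0.07, limma adjusted p = 0.429) and another at 0.01 (95% interval -0.09 to 0.11). The first had control values of 10.56, 10.72 and 10.99 (lowest, median and highest) and spatial learning values of 10.45, 10.51 and 10.73, with 4 spatial learning rats below every control. With the hexokinase signal gap as a covariate it was -0.04.

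Arl proteins, relatives of the Arfs, had 13 of 16 probe sets tested, 9 positive and 4 negative, with a median of 0.04, or 0.01 with that covariate. Arl1, which recruits golgin tethers to the trans-Golgi network, had a lowest, median and highest of 9.05, 9.10 and 9.25 in the control task group and of 9.22, 9.25 and 9.48 after spatial learning. Control replicate 2 alone reached the spatial learning range. The difference was 0.17 (SE 0.05, limma adjusted p = 0.388), and the second Arl1 probe set gave 0.06. Arl15 had the largest positive difference of all members, 0.35, a 1.27-fold change (SE 0.11, limma adjusted p = 0.388). Its values were 9.53, 9.98 and 10.35 in the control task group and 10.15, 10.33 and 10.49 in the spatial learning group, with 5 controls below every spatial learning rat and control replicate 6 the highest. The Arl15 difference was 0.16 with the hexokinase gap as a covariate and 0.42 without control replicate 6. Arl6ip6 stood at 0.25 (limma adjusted p = 0.434), and at 0.16 without spatial learning replicate 5. Arl2 and Arl6, the latter a ciliary GTPase, differed by -0.02 and -0.04, and Arl6ip5, a membrane protein that binds a neuronal glutamate transporter, by 0.07 and 0.04. Arl9 and Arl11 were below the filter.

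Promoter sequences are shown for Arf1 and Rab5a, the genes whose probe sets, by the smaller of their differences, lay furthest above and below 0 among genes with more than 1. Each is the 250 bases before the gene start in RefSeq (GRCr8), read on the gene's strand, 5' to 3', in lower case with any E-box (CACGTG) or full cyclic AMP response element (TGACGTCA) in capitals. The E-box core is part of the element bound by TFEB, a regulator of lysosomal genes, and the other motif is bound by CREB.
Arf1, chr10:44513995-44514244, minus strand: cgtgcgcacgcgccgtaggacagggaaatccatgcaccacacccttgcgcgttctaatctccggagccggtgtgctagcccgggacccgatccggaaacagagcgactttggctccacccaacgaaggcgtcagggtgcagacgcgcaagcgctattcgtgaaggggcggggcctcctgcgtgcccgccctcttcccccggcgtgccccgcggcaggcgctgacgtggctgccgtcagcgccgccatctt
Rab5a, chr9:6720877-6721126, plus strand: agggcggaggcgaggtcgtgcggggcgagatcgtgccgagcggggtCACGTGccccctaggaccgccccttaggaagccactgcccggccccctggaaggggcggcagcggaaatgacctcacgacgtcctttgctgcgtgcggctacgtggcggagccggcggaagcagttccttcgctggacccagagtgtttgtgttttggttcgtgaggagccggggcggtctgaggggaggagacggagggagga
Both windows are 68.4% G and C. The Rab5a window holds 1 E-box and the Arf1 window neither motif. Promoter entries were found for 128 of the 151 member genes, 131 windows in all, since some genes have more than 1 start. Of these windows 16 (12.2%) held an E-box and 5 (3.82%) a full response element, beside 8.41% and 2.75% of the 6432 windows of tested genes and 5.59% and 1.59% of all 33469 windows. Both motifs are palindromes, so each match counts for both strands. A match describes letters and is not evidence of binding.

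Adaptor complexes gave small differences. AP-2, which loads cargo into clathrin-coated vesicles at the plasma membrane and takes part in AMPA receptor endocytosis, had 5 of 5 probe sets tested and differences from -0.07 to 0.05. Ap2m1, its cargo-binding mu subunit, had control values of 12.02, 12.11 and 12.21 (lowest, median and highest) and spatial learning values of 12.04, 12.09 and 12.16. Its difference was -0.02, with a 95% interval of -0.09 to 0.06. Ap2a2, an alpha subunit, ran from 9.65 to 9.74 in the control task group and from 9.52 to 9.66 after spatial learning. Here 5 of 6 controls lay above every spatial learning rat, yet the difference was only -0.07 (SE 0.03, limma adjusted p = 0.473). Ap2b1 gave 0.05 and -0.05 on its probe sets, and Ap2s1 gave 0.04.

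AP-1, which works between the trans-Golgi network and endosomes, had 1 positive and 4 negative differences. Ap1m1, a mu subunit, stood at 0.10 (SE 0.06, limma adjusted p = 0.524). Ap1g1, the gamma subunit, gave -0.10, and 0.04 without spatial learning replicate 5, whose value of 5.28 lay far below the 5.97 to 6.31 of its group. Ap1b1, Ap1g2 and Ap1s1 each differed by -0.01. Ap1m2, the epithelial mu subunit, and Ap1s3 were below the filter. AP-3, which sends cargo to lysosomes and, in its neuronal form, to synaptic vesicles, had 3 positive and 5 negative differences. Ap3d1, the delta subunit, gave -0.05 and -0.09, Ap3b2, the neuronal beta subunit, gave -0.08 (95% interval -0.27 to 0.12), and Ap3b1, the widely expressed form, gave 0.05. None of the 18 tested adaptor probe sets had an unadjusted limma p under 0.05, where 10.9% of all tested probe sets did. So few probe sets say little beside that share.

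Vps proteins, first known from yeast mutants that mis-sort vacuolar enzymes, had 29 of 31 probe sets tested, 18 positive and 11 negative, with a median of 0.02, or 0.07 without the 3 arrays high in choroid plexus or meningeal transcripts. Vps26a, a subunit of the retromer that retrieves receptors from endosomes, ranked first by p among the members and 41st among all 9610 probe sets. Its control values were 5.37, 5.51 and 5.65 (lowest, median and highest) and its spatial learning values 5.67, 5.76 and 5.89. All 6 spatial learning rats lay above all 6 controls, the one such case among the 164 members (0.610%), where groups did not overlap in 0.635% of all tested probe sets, with spatial learning higher in 0.364%. No member lay wholly lower, beside 0.271% of all. The difference was 0.25, a 1.19-fold change (SE 0.06, limma adjusted p = 0.245), and it lay between 0.22 and 0.27 whichever array was left out. The second Vps26a probe set did not separate the groups. It gave 8.71, 9.07 and 9.41 against 9.06, 9.13 and 9.30, a difference of 0.08 (SE 0.09, limma adjusted p = 0.787). With the hexokinase gap as a covariate the first stayed at 0.25 and the second stood at -0.00.

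Differences of the other retromer subunits were smaller. Vps35, the scaffold of the complex, ran from 10.10 to 10.18 in the control task group and from 9.99 to 10.23 after spatial learning, a difference of 0.01 with a 95% interval of -0.08 to 0.09. Vps29 differed by 0.04. Vps26c and Vps35l, of the related retriever complex, differed by -0.03 and -0.13 (limma adjusted p = 0.517 for Vps35l).

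The tethering complexes HOPS and CORVET, which dock endosomes and lysosomes, were grouped with the other Vps regulators and had 7 positive and 2 negative differences. Vps11, a core subunit of both, had control values of 8.33, 8.56 and 8.76 and spatial learning values of 8.66, 8.71 and 8.91, with 5 controls below every spatial learning rat. Its difference was 0.18 (SE 0.06, limma adjusted p = 0.425). Vps33b gave 0.22 (SE 0.11, limma adjusted p = 0.497), Vps16 gave 0.08, Vps33a 0.05 and 0.02, Vps45 0.14, Vps39 -0.03 and Vps41 -0.00. Vps9d1, which carries the domain found in Rab5 exchange factors, stood at 0.27 (SE 0.10, limma adjusted p = 0.429). ESCRT members, which sort cargo into multivesicular bodies, had 2 positive and 5 negative differences, from -0.34 for Vps37a to 0.11 for Vps28, and the ATPases Vps4a and Vps4b gave -0.04 and -0.02. GARP and EARP subunits, tethers for endosome-derived vesicles, gave 0.10 for Vps50, 0.12 for Vps52, 0.02 for Vps53 and -0.08 for Vps54.

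Sorting nexins, which bind endosomal phosphoinositides, had 17 of 20 probe sets tested, 10 positive and 7 negative, with a median of 0.01. Of the 17, 0 had an unadjusted limma p under 0.05, beside 10.9% of all tested probe sets, a share that so few can hardly be set against. Snx27, which returns AMPA receptors and other cargo to the surface with retromer, gave 0.07 on both probe sets, with a 95% interval of -0.11 to 0.24 on the first. Snx1, Snx2, Snx5 and Snx6, the membrane-bending partners of retromer, gave -0.05, 0.01, -0.09 and -0.01. Snx3, a cargo adaptor of retromer, gave 0.08. The smallest p in the family belonged to Snx19, at 0.12 (SE 0.06, limma adjusted p = 0.517), and then, of genes taken by the probe set with the highest mean, to Snx18, at -0.11 (SE 0.07, limma adjusted p = 0.599). The 3 other Snx18 probe sets were below the filter. The family median was -0.04 without the 3 arrays high in choroid plexus or meningeal transcripts.

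Sec proteins had 22 of 26 probe sets tested, 14 positive and 8 negative, with a median of 0.02, or 0.0029 without the level filter. COPII components, which form vesicles leaving the endoplasmic reticulum, lay within a narrow range: Sec13 gave 0.04, Sec16a 0.05, Sec23b 0.01, Sec24b 0.00, Sec24c 0.04, Sec24d 0.06 and Sec31a -0.07. Sec22b, a SNARE of that route, had control values of 7.75, 7.93 and 8.05 and spatial learning values of 7.95, 8.04 and 8.14, a difference of 0.13 (SE 0.06, limma adjusted p = 0.447). Of the translocon, the channel through which new proteins enter the endoplasmic reticulum, Sec61a1 gave 0.09 and -0.04, Sec61a2 0.00, Sec61b 0.08 and Sec61g 0.07. The accessory subunit Sec62 had a lowest, median and highest of 10.40, 10.51 and 10.62 in the control task group and of 10.27, 10.34 and 10.59 after spatial learning. Its difference was -0.13 (SE 0.05, limma adjusted p = 0.434), -0.04 on a second probe set and -0.08 for the first without the 3 arrays just named. Its partner Sec63 gave -0.10 and -0.03. The signal peptidase subunits Sec11a and Sec11c gave 0.10 and -0.04. Sec14l3, Sec16b and Sec22a were below the filter.

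Repeat probe sets of a gene gave a check that the rule did not use. Of the 27 genes with more than 1 tested probe set, 17 had the same sign on all of them, 10 positive and 7 negative, and 10 did not. The same share over all genes on the array is not given here, so these counts are not read as a result about the members. The median gap between a gene's lowest and highest difference was 0.08, close to the median SE, and the largest was 0.19, for Rab5b. Of the 15 members with an unadjusted p under 0.05, both probe sets of Arf1 were the only pair from 1 gene. Taking 1 probe set per gene, that with the highest mean over all arrays, 85 of 135 genes (63.0%) had a positive and 50 a negative difference, with a median of 0.03. Over all tested probe sets, not reduced to 1 per gene, 53.7% were positive. At an unadjusted limma p under 0.05 were 7 genes higher (5.19%) and 1 lower (0.741%), beside 6.36% and 4.55%. In Arf3, Arl1, Rab5a, Rab5b, Sec62 and Vps26a the brighter probe set was not the one past that threshold. It gave 0.01, 0.06, -0.14, 0.05, -0.04 and 0.08.

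**Figure D3:**
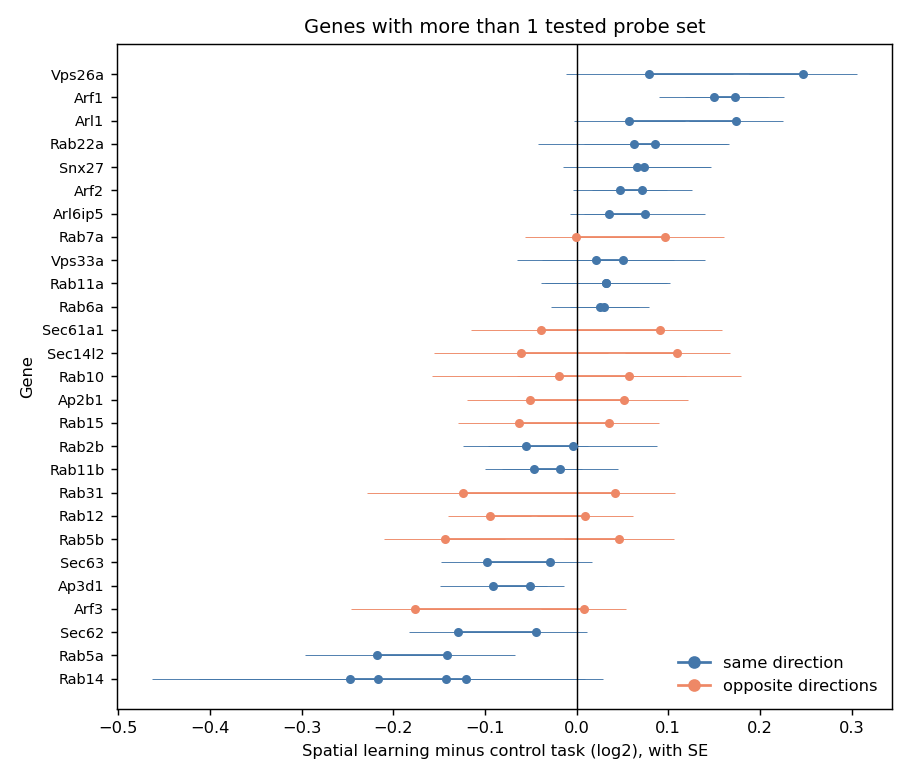
Each row is a gene with more than 1 tested probe set, and each point is the difference of 1 probe set (x axis, log2, bars show the SE). In 17 genes all points lie on one side of 0 (blue) and in 10 they do not (orange), with Arf1 at 0.15 and 0.17 and Rab14 from -0.25 to -0.12.

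Single arrays weighed on several families. Spatial learning replicate 5 was the lowest of the 12 arrays in 28 of the 164 members (17.1%), beside 14.4% of all tested probe sets, and the highest in 22 (13.4%, beside 15.4%). It was lowest in none of the 9 Arf probe sets and highest in 4 of them. Its mean deviation from the 12-array mean was -0.14 over the Ap1, -0.12 over the Ap3 and -0.09 over the Snx probe sets, against 0.10 over the Arf probe sets. Spatial learning replicate 3 was lowest in 25 members (15.2%, beside 9.32% of all tested probe sets). The count of members lower with an unadjusted p under 0.05, 5 in all, was 3 without control replicate 4, control replicate 5, spatial learning replicate 1 or spatial learning replicate 2, and 2 without spatial learning replicate 6. Over all tested probe sets the lower share, 4.55% with all arrays, was 3.50%, 3.82%, 3.98%, 4.14% and 4.48% in these fits, in that order. With the hexokinase gap as a covariate 4 members were higher and 1 lower at that threshold, where 3.54% and 2.76% of all tested probe sets were. The gap hardly overlaps between the groups, and SEs were larger in that fit, such as 0.09 instead of 0.06 for the first Vps26a probe set.

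**Figure D4:**
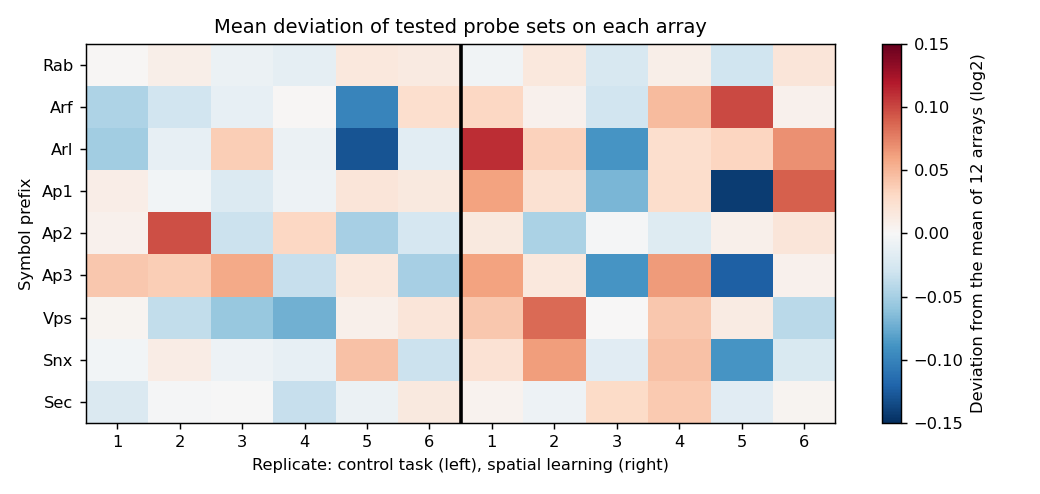
Colours give the mean deviation of each prefix's tested probe sets (rows) on each array (columns, control task left of the black line) from their 12-array mean, in log2 units. Spatial learning replicate 5 is low for Ap1 (-0.14), Ap3 (-0.12) and Snx (-0.09) and high for Arf (0.10), and control replicate 5 is low for Arf (-0.10) and Arl (-0.13).

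Partner genes of these routes were read from 7 further lists, each gene by its probe set with the highest mean, and none passed the test either. Their counts at an unadjusted p under 0.05 stand beside 6.36% higher and 4.55% lower over all tested probe sets, and rest on few genes. Clathrin and endocytic machinery had 12 positive and 10 negative differences in 22 tested genes, with 3 (13.6%) and 2 (9.09%) at that threshold and a median of 0.02. Its examples are the epsins, which help bend the membrane, with Epn2 at 0.15 and Epn1 at -0.21, and Eps15, an endocytic scaffold, at 0.11. Regulators of Rab proteins had 8 positive and 9 negative differences in 17 genes, with 3 (17.6%) and 0 past that threshold and a median of -0.04. They include Rabggta, a subunit of the enzyme that attaches the Rab lipid anchor, at 0.24, and Tbc1d14, of a Rab GTPase-activating family, at 0.17. Regulators of Arf proteins had 12 positive and 7 negative differences in 19 genes, with 2 (10.5%) and 1 (5.26%) past it. Arfgef1, an exchange factor that activates Arf1 at the trans-Golgi network, stood at 0.12 (limma adjusted p = 0.425), Git1, an Arf GTPase-activating protein, at 0.13, and Cyth1, an Arf exchange factor, at -0.42 (limma adjusted p = 0.388).

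The remaining lists had medians of 0.01 to 0.03. Counts of positive and negative differences were 6 and 5 for the COPI coat and Sar1, 11 and 9 for the exocyst, COG and TRAPP tethers, 6 and 5 for other ESCRT genes, and 10 and 5 for signal recognition and translocon partners. The last list had 2 genes (13.3%) higher past the unadjusted threshold, Ssr2 and Ssr4, subunits of a complex bound to the Sec61 channel, at 0.16 and 0.13. COPI and Sar1 had 1 (9.09%), Sar1a, the GTPase that starts COPII assembly, at 0.13.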

How the data were processed

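Each of 12 rats gave 1 RAE230A array of CA1 RNA, and groups and replicate numbers were read from the sample titles. The authors deposited 1 table of log2 probe set values, made with GCRMA per the submitters' processing notes. The sources used here give no version or settings, and the log2 scale was inferred from the range (0.134 to 14.8). GCRMA equalises the arrays, so a change in total RNA is invisible, and folds of dim probe sets may be understated. Depth does not apply to arrays, and their number, 6 per group, limits the precision.

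Probe sets were named through GEO's platform annotation. The 57 manufacturer's controls and 3083 probe sets with several symbols or none were not named. Of the 188 member probe sets, 187 have an Entrez identifier in a RefSeq table on GRCr8, with 0 symbols changed. 1 further Rab gene is not reported here. Probe sets with a mean of at least 4 were fitted together with limma 3.58.1 in R 4.3.3 (a 2-group lmFit model and trended eBayes, 2-sided). P-values were adjusted by Benjamini-Hochberg across the 9610 probe sets and called at 0.05. The procedure was tested on simulated data.

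Members and lists were chosen with earlier results of these data known, and roles were assigned after values were seen. No list test is given for that reason. Named genes were, by rule, the 6 members with the smallest p in each direction, the 2 genes with the smallest p in each prefix, and a preset list of textbook genes. Other genes are given by role, chosen after their values were seen. Of the preset genes, Sec23a and Ap2a1 were not analysed here. Same-numbered arrays of the groups did not deviate together (correlations -0.17 to 0.08 over 6 pairs, 0 over 0.1), so arrays were not paired. Alternatives changed the filter, scaling, variance model, test, covariates and arrays used.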

Additional observations from a re-analysis of the deposited data

Results flagged for a closer look

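In 9 of 78 groups of 6 arrays among the 39 named probe sets, the highest or lowest array stood apart from the other 5 by more than a Dixon test at the 95% level allows. About 1 group in 20 is expected by chance, which is 3.9 here, and probe sets of the same arrays are not independent. Spatial learning replicate 5 was the low array in 4 of them. These were Ap1g1 at 5.28 (nearest other 5.97), Ap2a2 at 9.52 (9.62), Rab7a at 9.98 (10.29) and Sec63 at 7.62 (7.80). Spatial learning replicate 1 was the high array for Arl1 at 9.48 (9.31) and for Vps11 at 8.91 (8.75). Spatial learning replicate 2 was the low array for Vps35 at 9.99 (10.14). In the control task group, replicate 1 was high for Ap1g1 at 6.16 (6.06) and replicate 2 high for Arl1 at 9.25 (9.12).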

How the results depend on the processing

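The number of members with a limma adjusted p under 0.05 was 0 in the reported fit and in every alternative limma fit. The exact rank-sum test also passed 0, but with 6 arrays per group it could hardly pass any. Of the 39 named probe sets, 31 kept their direction in all fits run. The count of members lower at an unadjusted p under 0.05, 5 as reported, was 3 with the replicate number as a block and 1 with the hexokinase gap as a covariate, and that of higher members, 10 as reported, was 8 with the block and 4 with the covariate. Over all tested probe sets 4.55% were lower and 6.36% higher as reported. These shares were 3.81% and 4.19% with the block, and 2.76% and 3.54% with the covariate. Leaving out 1 array at a time gave 2 to 7 lower and 8 to 14 higher. Over all tested probe sets the lower share then ran from 3.50% to 5.58%. Where 8 were higher, without spatial learning replicate 5, 5.02% of all tested probe sets were higher. The share over all tested probe sets where 14 were higher is not given here, so that count is not read as a result about the members. Without a level filter the Rab median was 0.0080 and the Sec median 0.0029, and with the covariate the Rab median was -0.0018. Without the 3 arrays that stand apart the Snx median was -0.0433 and the Vps median 0.0651. With 1 array left out, the medians ran from -0.00055 to 0.0285 for Rab and from 0.0050 to 0.0477 for Sec. Directions turned with the covariate for Rab11a (-0.0011), Rab8a (-0.0025) and the second Vps26a probe set (-0.00022). With 1 array left out they turned for Ap1g1 (-0.166 to 0.0399), Ap2m1 (-0.0343 to 0.0050), Arf6 (-0.0375 to 0.0498), Rab11a (-0.0021 to 0.0849), Snx1 (-0.0756 to 0.0012) and Vps35 (-0.0099 to 0.0369). The cause of these shifts was not tested. The block changed no call at the adjusted threshold, 0 before and 0 with it, and only 1 of 6 control arrays correlated best with its own number.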
